A study of Homo sapiens with 45 samples.

Results

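The anaphase-promoting complex (APC/C) is described here through 10 genes of its subunits, activators, inhibitor and ubiquitin-conjugating enzymes, chosen by name, of 19775 genes named on the arrays. They are the core subunits CDC16, CDC23, CDC27, ANAPC1 and ANAPC5, the activators CDC20 and FZR1, the inhibitor FBXO5 and the E2 enzymes UBE2C and UBE2S. A gene was represented by the probe set of highest mean among those that name that gene alone. By this rule 9 members were measured, and 8 of these lay above the noise limit, together with 4792 other genes. All arrays carried RNA from A375, an established human melanoma line, on Affymetrix U133 plus 2.0 arrays. In 39 cultures an siRNA pool against 1 gene was used, each on 1 array, 3 cultures received control siRNA and 3 were untreated. RNA was taken 48 h after transfection, and the labels give 100 nM of siRNA, whereas the study's methods state a lower concentration. The 39 cultures fall into batches KD1 (9 arrays), KD3 (7 arrays) and KD2 (23 arrays), as the study's table of targets lists them. No batch is given for the control siRNA and untreated arrays. CDC16 siRNA, in batch KD2, targets a member directly. The other siRNAs named below are against the lineage transcription factor MITF, the replicative helicase subunit MCM2, the ERK-activating kinase MAP2K1, the mitotic kinase CDC2 (now CDK1) and its cyclin CCNB1, the transcription factor FOXM1, and other regulators.

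The APC/C is a ubiquitin ligase of many subunits that drives cells through mitosis and keeps them in G1. Its scaffold and its TPR subunits, among them CDC16, CDC23 and CDC27, hold the catalytic part and the binding sites for the activators. CDC20 activates it in mitosis and FZR1 (also called CDH1) from late mitosis through G1. UBE2C starts ubiquitin chains on its substrates, UBE2S lengthens them, and FBXO5 (also called EMI1) blocks the complex in S phase and G2. CDC20, UBE2C, UBE2S and FBXO5 are known as genes whose transcripts change through the cell cycle in proliferating cells, whereas the core subunits are present throughout.

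The gene targeted by the siRNA was measured in 37 of the 39 arrays, and in all 37 it was the lowest of its batch and lower than the batch median by 0.5 or more on the log2 scale. The study selected siRNAs that could lower their target mRNA, so this count was partly set by that choice. Of the markers of the melanocyte lineage 3 of 7 measured lay above noise (SOX10, MITF and S100B), and PMEL, MLANA, TYR and S100A1 did not. None of the 3 leukocyte, 3 epithelial and 2 endothelial markers did. Control siRNA array 3 and untreated array 3 were near copies of each other: every probe set of the untreated array lay within 10% of the control siRNA array (95.4% by the reverse ratio), against at most 62.0% of probe sets in any other pair of arrays. Neither enters the comparisons among the 39 siRNA arrays. In bulk RNA, fewer cells in a phase of the cell cycle and less RNA per cell cannot be told apart.

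All values below are log2 intensities, or log2 differences of an array from the median of its own batch. UBE2S and ANAPC5 gave the brightest main probe sets, with mean log2 intensities of 11.80 and 11.15 over the 45 arrays. CDC16 followed at 10.76, CDC20 at 10.66 and UBE2C at 10.60, then CDC27 at 9.63, CDC23 at 9.01 and FBXO5 at 8.70. FZR1 gave 6.63 and lay below the noise limit of 8.59, so its values carry little signal. Intensities of different probe sets do not compare the abundance of different genes. ANAPC1 is not reported by name: its 3 probe sets are annotated to ANAPC1 together with the pseudogenes ANAPC1P4 and, for 1 of them, ANAPC1P2. The brightest of these 3 (mean 9.21) differed from its batch median by -0.04 in the CDC16 siRNA array and had an SD of 0.08 over the 39 arrays. The main probe sets of ANAPC5 and FBXO5 are of a type (suffix x_at) whose probes may match other transcripts too.

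CDC16 (chr13:114234897-114272723, GRCh38.p14) encodes a TPR subunit of the APC/C, and its RNA was lowered by its own siRNA. CDC16 had a log2 value of 9.38 (intensity 667) in the CDC16 siRNA array, against a median of 10.82 (intensity 1810) in batch KD2. This is a log2 difference of -1.44, or 0.369 of the batch median. In the 22 other arrays of the batch CDC16 lay between 10.74 and 11.02, with an SD of 0.07 in its differences, so the CDC16 siRNA array stood far outside their range. It was the lowest of 23 arrays. The other arrays carry different siRNAs and are not replicates, and an exact rank test of 1 array among 23 cannot go below p = 0.0435 one-sided (the value here) or 0.0870 two-sided, so it adds nothing to the range above. The other 2 probe sets of CDC16 gave -1.62 and -1.34 in the same array. With 1 array there is no replicate of this knockdown, and the siRNAs of the study were selected for lowering their targets.

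No other member was 0.5 or more from its batch median in the CDC16 siRNA array. Of the core subunits, CDC23 was at 0.05, ANAPC5 at 0.03 and CDC27 at -0.09, and CDC27 was the 2nd lowest of the 23 arrays. CDC20, the mitotic activator, was at 0.18, FZR1 at 0.07 and the inhibitor FBXO5 at 0.02. Of the E2 enzymes, UBE2S was at 0.16 and UBE2C at 0.04. Each of these main probe set values lay inside the range of the 22 other arrays of the batch. That range was -0.39 to 0.37 for CDC20 and -0.50 to 0.33 for UBE2C. By its other probe set, below noise, FBXO5 was at -0.25 in this array. The other probe sets gave 0.17 to 0.20 for FZR1, 0.03 to 0.11 for CDC27, -0.07 to 0.26 for ANAPC5 and 0.03 for CDC23. The count of members past 0.5 was thus 1, CDC16 itself, which the siRNA targets. Over the 4800 genes above noise, 6 (0.125%) were lower by 0.5 or more in this array and 5 (0.104%) were higher. With the 3 control siRNA arrays in place of the batch median, UBE2S passed 0.5 as well (11.54 in the CDC16 siRNA array, against 12.05 ± 0.59 in control siRNA arrays, SD, n = 3), and the control arrays themselves spanned 11.38 to 12.47.

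**Figure D1:**
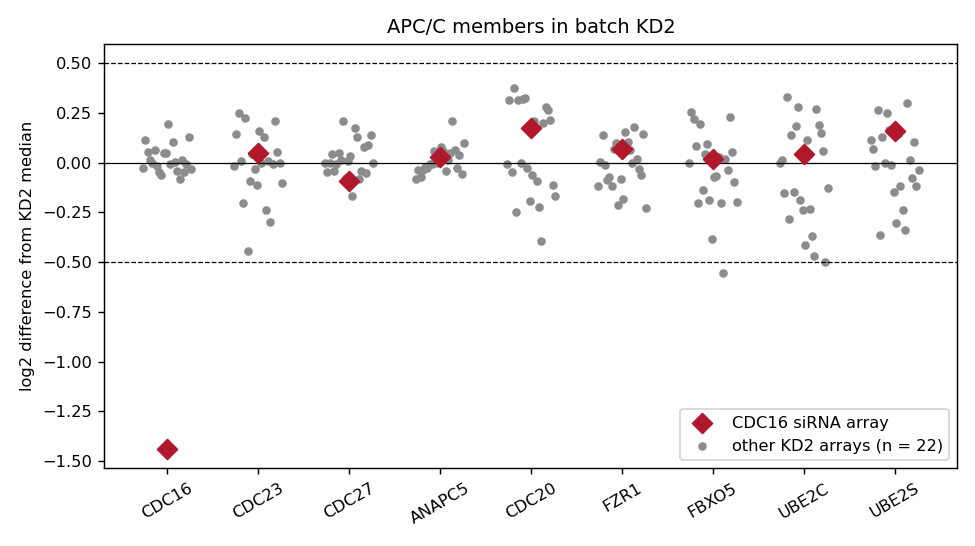
Log2 difference from the KD2 median (vertical axis) for each of the 9 measured members (horizontal axis), with the CDC16 siRNA array as a diamond and the 22 other KD2 arrays as points; dashed lines mark 0.5 in either direction. CDC16 lies at -1.44 in its own array, and the diamonds of all other members lie within the points.

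The rest of the pathway gave no value past 0.5 in the CDC16 siRNA array either. Of the other APC/C subunits 0 of 8 above noise passed, with a median of 0.03. The lowest were ANAPC4 (-0.02) and ANAPC10 (0.00, the batch median), and the highest CDC26 (0.09) and ANAPC15 (0.15). Of the known APC/C substrates 0 of 21 passed, with a median of 0.01. SKP2, a substrate receptor of another ubiquitin ligase, was lowest at -0.22 and ANLN, the contractile ring protein anillin, followed at -0.17. The mitotic kinases AURKA (0.10) and PLK1 (0.11) were highest. Of the 6 checkpoint genes and other regulators none passed. The checkpoint protein MAD2L1 was at -0.11 and the kinase CDK1 at -0.02, and BUB3 was at 0.07. MAD2L1BP, which encodes the MAD2-binding protein p31comet, was at 0.14, the highest of the 23 arrays of the batch. None of the 24 genes above noise of a G2/M list passed (median -0.01; ECT2 at -0.20 and TOP2A at -0.15 were lowest, KIF23 at 0.12 and TROAP at 0.31 highest), and none of 24 of an S phase list did (median -0.03; SLBP at -0.32 and CHAF1A at -0.17 were lowest, RFC2 at 0.01 and MCM3 at 0.08 highest). The median over all genes above noise in this array was 0.0006. With 1 array and no replicate, a difference smaller than the spread of the other arrays could not be detected.

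Over the 39 siRNA arrays, the members differed in how much they varied. The SD of the log2 differences from the batch median was 0.26 for UBE2C, 0.23 for CDC20 and 0.21 for FBXO5, above those of 97.6%, 95.6% and 92.2% of the genes above noise. It was 0.16 for UBE2S and 0.15 for CDC23, nearer to the median gene (0.12). CDC27 had an SD of 0.10 and ANAPC5 one of 0.07, above those of only 27.6% and 3.85% of genes. CDC16 had an SD of 0.24, and 0.075 without its own siRNA array. FZR1, below noise, had an SD of 0.14. Of the 351 member values, 5 were lower than the batch median by 0.5 or more and 1 was higher. Over the 8 members above noise this was 1.60% lower and 0.321% higher of 312 values, beside 0.507% lower and 0.225% higher over all genes above noise. One of the 5 lower values is CDC16 in its own array. No array had 3 or more members past 0.5 in the same direction.

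**Figure D2:**
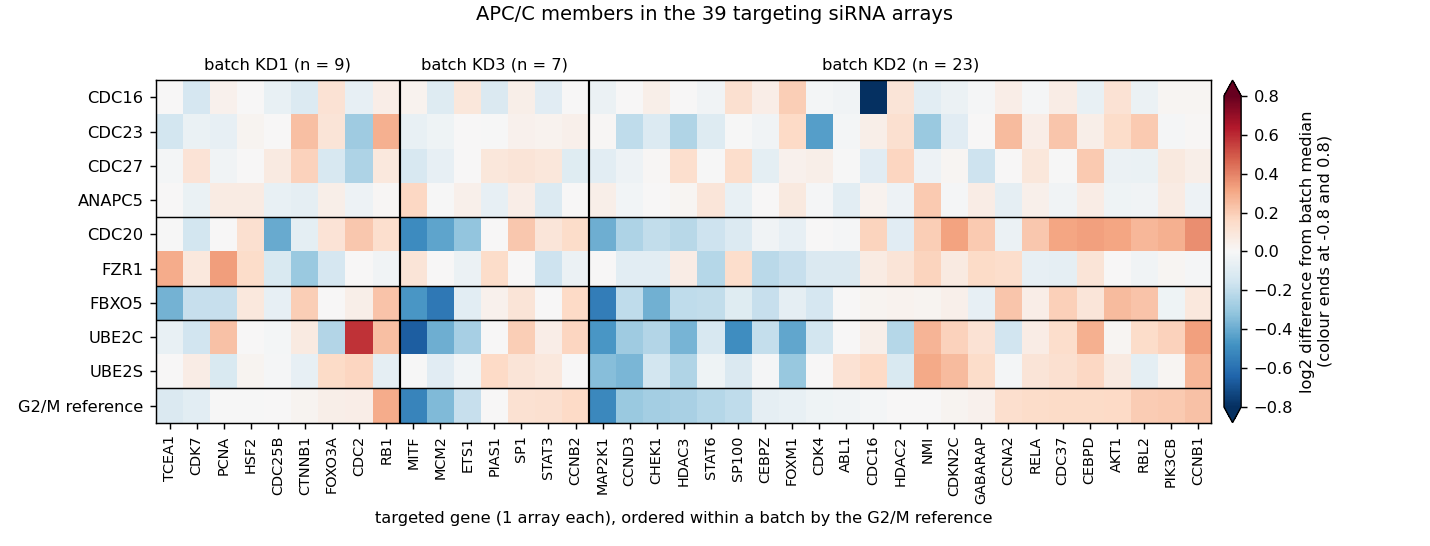
Log2 difference from the batch median (colour) of the 9 measured members and, in the last row, of the median of the G2/M reference genes, in the 39 siRNA arrays (columns, by batch). CDC20, FBXO5 and UBE2C share the blue of the G2/M row in the MITF, MCM2 and MAP2K1 siRNA arrays, and CDC16 stands out only in its own array.

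CDC20, which brings substrates to the APC/C in mitosis, was lowest after MITF siRNA. There it had a log2 value of 9.97, against a median of 10.47 in batch KD3, a difference of -0.50. It was at -0.42 after MCM2 siRNA, at -0.40 after CDC25B siRNA (the target is a phosphatase that activates CDK1) and at -0.39 after MAP2K1 siRNA. It was highest after CCNB1 siRNA, at 0.37. FZR1, the other activator, was lowest after CTNNB1 siRNA (-0.29) and highest after PCNA siRNA (0.34), but all 4 of its probe sets lay below noise and the other 3 did not follow the main one (rho of 0.02 to 0.05).

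UBE2C, the chain-starting E2, had both the lowest value of a member that was not targeted and the single high one. After MITF siRNA it was at -0.66 (10.54, against a KD3 median of 11.19). It was at -0.50, just short of the limit of 0.5, after SP100 siRNA (the target is a component of nuclear bodies), at -0.47 after MAP2K1 siRNA and at -0.42 after FOXM1 siRNA. It was highest after CDC2 siRNA, at 0.58 (11.15, against a KD1 median of 10.58), and 2nd highest after CCNB1 siRNA, at 0.33. UBE2S, the chain-lengthening E2, moved less: it was lowest after CCND3 siRNA (-0.36), MAP2K1 siRNA (-0.34) and FOXM1 siRNA (-0.30), and highest after NMI siRNA (0.30). The E2 enzymes and CDC20 did not always go the same way. After FOXM1 siRNA CDC20 was at -0.06 beside UBE2C at -0.42 and UBE2S at -0.30. After MITF siRNA UBE2S was at -0.00 beside CDC20 at -0.50.

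FBXO5, the APC/C inhibitor of S phase and G2, was lowest after MCM2 siRNA at -0.57 (8.02, against a KD3 median of 8.59). After MAP2K1 siRNA it was at -0.55 (8.32, against a KD2 median of 8.87), and after MITF siRNA at -0.47. It was at -0.39 after siRNA against the checkpoint kinase CHEK1 and at -0.38 after siRNA against the elongation factor TCEA1. Its highest value, after AKT1 siRNA, was 0.25. The low values lie under the noise limit of 8.59, where intensity differences are least precise. The 2nd probe set of FBXO5 followed the main one over the 39 arrays with a rho of 0.69.

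By their main probe sets, the core subunits other than CDC16 differed by less than 0.5 in all 39 arrays. CDC23 lay between -0.44 (CDK4 siRNA) and 0.29 (RB1 siRNA), CDC27 between -0.24 (CDC2 siRNA) and 0.21 (CEBPD siRNA), and ANAPC5 between -0.11 (STAT3 siRNA) and 0.21 (NMI siRNA). CDC16, outside its own array, lay between -0.13 (CDK7 siRNA) and 0.19 (FOXM1 siRNA). Their probe sets followed one another weakly. The other CDC16 probe sets had a rho of 0.49 and 0.15 with the main one, and the 3 others of CDC27 a rho of 0.29, 0.11 and -0.09. The other probe set of CDC23 had a rho of 0.43, and the 5 others of ANAPC5 lay between -0.31 and 0.44. Probe sets below noise did pass 0.5, with CDC23 at -0.62 after FOXO3A siRNA and ANAPC5 at -1.41 after FOXM1 siRNA and 1.2 after CCNA2 siRNA.

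Of the 36 pairs of measured members, 6 were correlated over the 39 arrays (Spearman's rho on batch-centred values, 100000 permutations within batches, adjusted p under 0.05 over all pairs of a member with another member or a gene above noise), all with a rho above 0. All 6 involve CDC20, FBXO5, UBE2C, UBE2S or CDC23, and no pair with CDC16, CDC27, ANAPC5 or FZR1 was called. Of pairs of a member with a gene that is no member, 4.98% were called with a rho above 0 and 1.54% with a rho below 0. CDC20 and UBE2C had the highest rho, 0.826 (adjusted p = 0.00105 by permutation, with a Pearson r of 0.790 and a permutation p of 1e-05, the smallest possible). Without the MCM2 and MITF siRNA arrays, which are the most extreme for CDC20, r was 0.737. Within batches rho was 0.567 in KD1, 1.0 in KD3 and 0.893 in KD2. CDC20 and FBXO5 had a rho of 0.714 (adjusted p = 0.00169, r = 0.729), and 0.467, 0.893 and 0.785 within KD1, KD3 and KD2. FBXO5 and UBE2C had a rho of 0.668 (adjusted p = 0.00217, r = 0.639), and 0.467, 0.893 and 0.653 within the batches in the same order. For the last 2 pairs too, only the 2 arrays most extreme for the first-named member were left out. These were MCM2 and MITF siRNA for CDC20, and MAP2K1 and MCM2 siRNA for FBXO5. Then r was 0.645 for CDC20 and FBXO5 and 0.574 for FBXO5 and UBE2C. For these 3 pairs rho was above 0 in every batch. Both pairs with FBXO5 depended on its probe set: with the probe sets of largest variance (for FBXO5 the other one, below noise) they were not called, with a rho of 0.345 for CDC20 and FBXO5 (adjusted p = 0.175) and 0.382 for FBXO5 and UBE2C (adjusted p = 0.152). Without batch centring neither was called, at 0.196 and -0.007, and CDC20 with UBE2C had a rho of 0.467 (adjusted p = 0.0120 by permutation across batches).

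UBE2S was tied to the others in KD2 and KD3 more than in KD1. CDC20 and UBE2S had a rho of 0.703 (adjusted p = 0.00105 by permutation, r = 0.641), with 0.233 in KD1, 0.643 in KD3 and 0.829 in KD2. UBE2C and UBE2S had a rho of 0.622 (adjusted p = 0.00304, r = 0.632), but -0.333 within the 9 arrays of KD1, with 0.643 in KD3 and 0.862 in KD2. FBXO5 and UBE2S missed the threshold (rho = 0.449, adjusted p = 0.0649). With the 2 arrays most extreme for CDC20 left out, r was 0.693 for CDC20 and UBE2S. With those most extreme for UBE2C (CDC2 and MITF siRNA) left out, r was 0.678 for UBE2C and UBE2S. The difference between batches was not tested. CDC23 was the core subunit in the set: it was correlated with FBXO5 (rho = 0.680, adjusted p = 0.00105, r = 0.498, and 0.717, 0.857 and 0.667 within KD1, KD3 and KD2), but its rho was 0.293 with CDC20 (adjusted p = 0.271) and 0.149 with UBE2C (adjusted p = 0.657). Among the core subunits themselves no pair was called, and the highest rho was 0.279, of CDC16 and CDC23 (adjusted p = 0.321). Without the CDC16 siRNA array the same 6 pairs were called. Counting by size alone, 6 of the 36 pairs had a rho of 0.5 or more, beside 1.71% of all pairs of genes above noise; the medians of rho were 0.050 and 0.037.

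Each member was then set against the median log2 difference of a list of 37 other G2/M genes and of one of 37 S phase genes in the same 39 arrays. Of each list only 24 genes lay above noise, but all 37 entered the median. These lists hold neither members nor the APC/C substrates named below. Their medians followed each other closely (rho = 0.918), so they do not separate the phases. Of the 9 measured members 5 were correlated with the G2/M reference, all with a rho above 0, where 15.8% of other genes were called with a rho above 0 and 4.76% with a rho below 0. FBXO5 had a rho of 0.872, CDC20 one of 0.820 and UBE2C one of 0.785 (adjusted p = 0.000242 each by permutation), above those of 99.6%, 98.9% and 98.4% of genes above noise. Pearson's r was 0.872, 0.838 and 0.785 for these 3, each with a permutation p of 1e-05, and 0.833, 0.788 and 0.789 when the pair of arrays most distant from the member's own median was left out. Without batch centring FBXO5 was not called with the G2/M reference (rho = 0.268, adjusted p = 0.259 by permutation across batches), while CDC20 (0.736) and UBE2C (0.716) were. Within KD1, KD3 and KD2, rho was 0.80, 0.857 and 0.880 for FBXO5, 0.583, 0.893 and 0.900 for CDC20, and 0.50, 0.893 and 0.815 for UBE2C.

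CDC23 (rho = 0.584, adjusted p = 0.00143 by permutation, r = 0.422) and UBE2S (rho = 0.50, adjusted p = 0.0139, r = 0.534) came next, above 93.6% and 89.7% of genes. With the corresponding pair of arrays left out r was 0.517 for CDC23 and 0.388 for UBE2S. CDC23 had a rho of 0.483 within KD1, 0.929 within KD3 and 0.524 within KD2. UBE2S had a rho of 0.083 within KD1, 0.536 within KD3 and 0.648 within KD2. Without the MITF, MCM2 and MAP2K1 siRNA arrays its rho was 0.439 and it missed the threshold (adjusted p = 0.0712). CDC23 kept its call without those 3 arrays but missed the threshold in KD2 alone (rho = 0.524, adjusted p = 0.0684). With its other probe set, which has the larger variance and lies below noise, CDC23 was called with neither reference (rho = 0.212 and adjusted p = 0.358 for G2/M, rho = 0.312 and adjusted p = 0.154 for S phase). The remaining members were not called: rho was 0.136 for CDC27, 0.060 for CDC16, -0.019 for FZR1 and -0.182 for ANAPC5, with adjusted p of 0.476 or more. Against the S phase reference the same 5 members were called, with a rho of 0.888 for FBXO5, 0.748 for CDC20, 0.682 for UBE2C, 0.618 for CDC23 and 0.506 for UBE2S (adjusted p of 0.0117 or less by permutation), where 17.5% of other genes were called with a rho above 0 and 5.26% with a rho below 0. Pearson's r with it was 0.890, 0.748, 0.649, 0.489 and 0.516 for these 5, and 0.864, 0.687, 0.625, 0.577 and 0.391 without the 2 farthest arrays. Within KD1 the rho of UBE2S with it was -0.033. Without batch centring, with permutation across batches, only CDC20 (0.632) and FBXO5 (0.667) of these 5 were called with it, and UBE2C had a rho of 0.002.

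**Figure D3:**
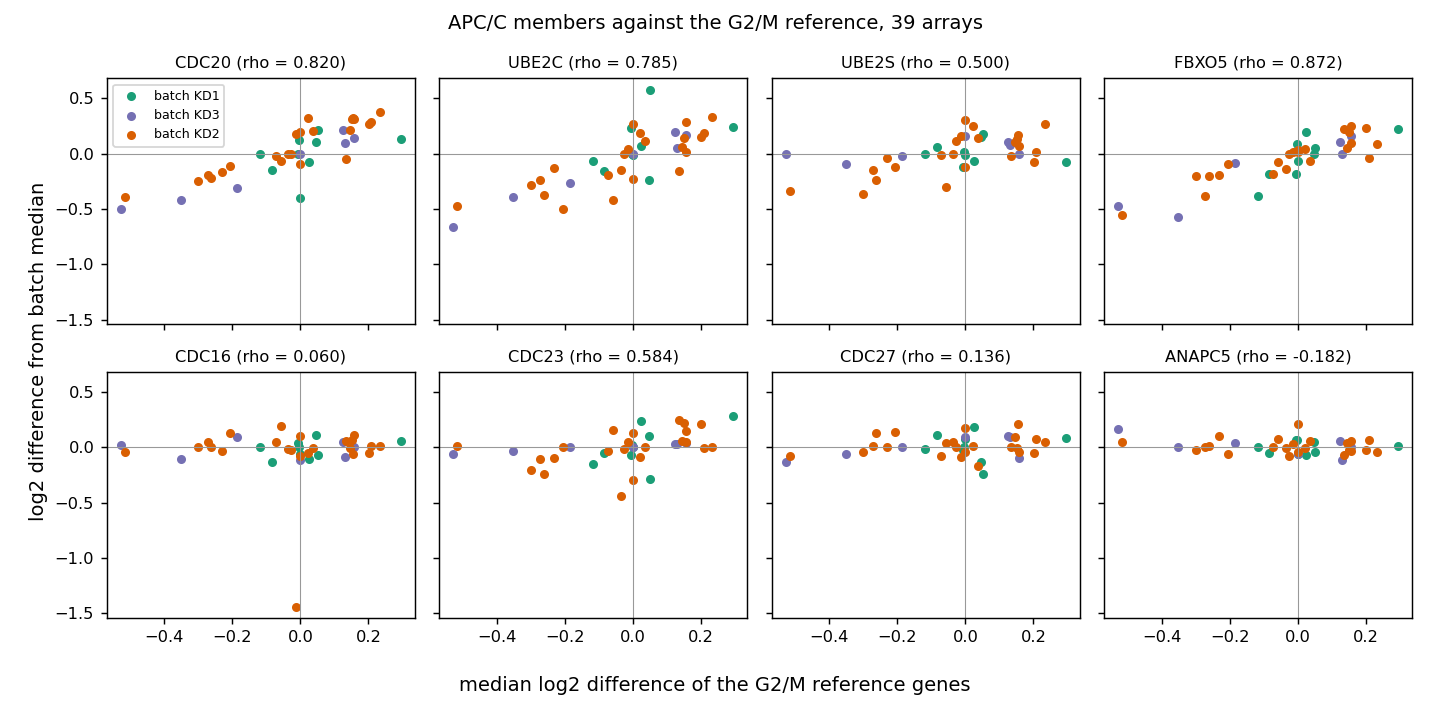
Log2 difference of 8 members from the batch median (vertical axis) against the median log2 difference of the G2/M reference genes (horizontal axis), 1 point for each of the 39 siRNA arrays, coloured by batch. CDC20, UBE2C and FBXO5 (rho of 0.820, 0.785 and 0.872) rise along the axis, while CDC16, CDC27 and ANAPC5 stay near 0 apart from CDC16 in its own array.

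The G2/M reference was at -0.53 after MITF siRNA, -0.52 after MAP2K1 siRNA and -0.35 after MCM2 siRNA. In these 3 arrays FBXO5 had its 3 lowest values and CDC20 3 of its 4 lowest, while UBE2S was at -0.00, -0.34 and -0.09. The reference was at 0.23 after CCNB1 siRNA and 0.30 after RB1 siRNA. Members departed from it in single arrays. After CDC2 siRNA the reference was at 0.05 while UBE2C was at 0.58 and CDC23 at -0.28. After CDC25B siRNA it was at 0.00 while CDC20 was at -0.40, and after FOXM1 siRNA it was at -0.06 while UBE2C was at -0.42. Each of these rests on 1 array.

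The other genes of the pathway split by role only in part. Their lists were chosen with earlier results of these data known, so the counts describe and are no independent test. Against the G2/M reference 15.8% of other genes were called with a rho above 0. Of the other APC/C subunits above noise 3 of 8 were correlated with the G2/M reference: ANAPC7 (rho = 0.523), ANAPC4 (0.447) and ANAPC10 (0.417, adjusted p = 0.0492 by permutation). ANAPC11, ANAPC13, ANAPC15, ANAPC16 and CDC26 were not called, with a rho of -0.146 to 0.275. The median rho of these 8 was 0.207, beside 0.081 over all genes above noise. All 21 substrates above noise were called with a rho above 0, with a median of 0.817. The highest were the spindle protein NUSAP1 (0.940) and the kinase AURKB (0.937), and the lowest SKP2 (0.637). CCNB1, CCNB2, CCNA2 and FOXM1, among these substrates, were themselves siRNA targets in 1 array each. Of the 6 checkpoint genes and other regulators 5 were called. BUB1B, TTK, CDK1, BUB3 and MAD2L1 had a rho of 0.670 to 0.883, and MAD2L1BP one of 0.027.

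**Figure D4:**
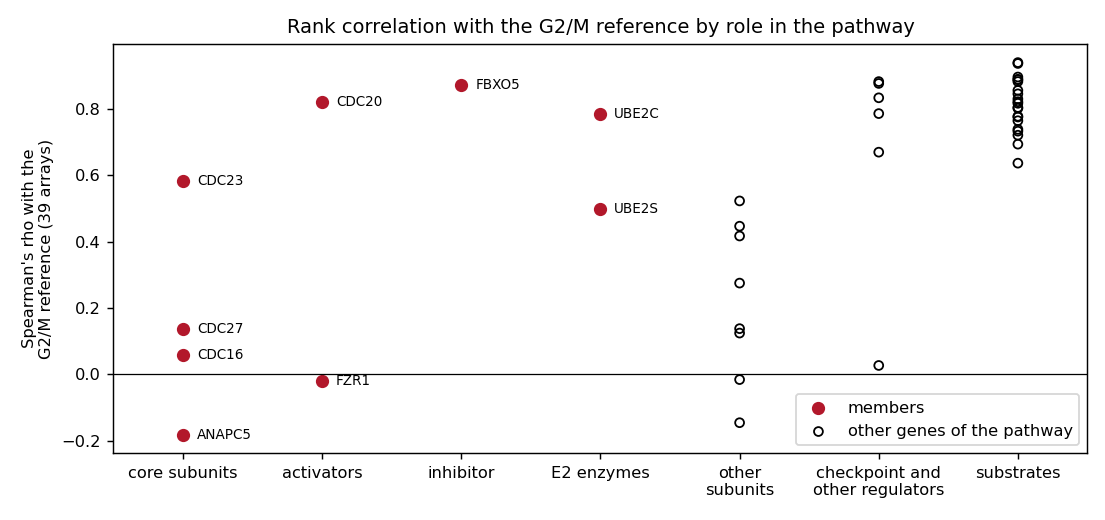
Spearman's rho with the G2/M reference over the 39 siRNA arrays (vertical axis) by role in the pathway (horizontal axis), with members as filled circles and other pathway genes as open circles. The substrates lie between 0.637 and 0.940, the core subunits between -0.182 and 0.584.

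The 3 genes most like CDC20 over the 39 arrays were KIF4A (rho = 0.869), KIF20A (0.867) and PRC1 (0.862), all of the mitotic spindle and its midzone. For UBE2C they were the centromere protein HJURP (0.892), TACC3 (0.865) and UHRF1 (0.845). For FBXO5 they were AURKB (0.911), the primase subunit PRIM1 (0.886) and geminin, GMNN (0.884). For UBE2S they were the splicing protein SNRPB (0.831) and the tubulins TUBA1B (0.823) and TUBA1C (0.810), which are near-identical in sequence. For CDC23 they were ING2 (0.793), ENOPH1 (0.776) and TUBGCP3 (0.747). CDC27 was closest to CHUK (0.676), AEBP2 (0.671) and the cohesin subunit RAD21 (0.644). CDC16 was closest to FASTKD5 (0.654), SARAF (0.590) and UBAP2 (0.587), and ANAPC5 to PACS2 (0.634), NAA60 (0.586) and PRPF31 (0.572). KIF4A, KIF20A, PRC1, HJURP and TACC3 belong to the G2/M reference list, PRIM1 and UHRF1 to the S phase list, and AURKB and GMNN to the substrates. All of these nearest genes had an adjusted p of 0.0107 or less by permutation. The nearest genes of FZR1 had a rho of at most 0.459 (LARP4, adjusted p = 0.0699). Over all 4792 other genes above noise, FBXO5 was correlated with 617 with a rho above 0 and 108 below, CDC23 with 479 and 72, CDC20 with 371 and 96, UBE2C with 295 and 117, and UBE2S with 219 and 70. CDC27 was correlated with 120 and 27, CDC16 with 30 and 72, ANAPC5 with 17 and 73, and FZR1 with 0 and 28.

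Promoters are shown for CDC20, FBXO5 and UBE2S, which moved with the cell cycle references, for CDC23, the core subunit that did so, and for CDC16, which was called with neither. Cell cycle promoters of the G2/M class often carry a CHR element (TTTGAA or TTCGAA) near CCAAT boxes, and G1/S promoters carry E2F sites (searched as TTTCCCGC, TTTGGCGC, TTTCGCGC and TTTGCCGC). These words were searched on both strands in the 250 bases before each annotated start (RefSeq, GRCh38.p14), and the matches are in capitals. The sequences run 5′ to 3′ on the gene's strand and end at the base before the start. They are chr1:43358731-43358980 (+ strand) for CDC20, chr6:152983042-152983191 (- strand) for FBXO5, chr19:55407789-55408038 (- strand) for UBE2S, chr5:138213324-138213573 (- strand) for CDC23 and chr13:114234647-114234896 (+ strand) for CDC16. For FBXO5 the last 150 bases before the inner of its 2 annotated starts are shown, chosen as the start with more matches.
CDC20: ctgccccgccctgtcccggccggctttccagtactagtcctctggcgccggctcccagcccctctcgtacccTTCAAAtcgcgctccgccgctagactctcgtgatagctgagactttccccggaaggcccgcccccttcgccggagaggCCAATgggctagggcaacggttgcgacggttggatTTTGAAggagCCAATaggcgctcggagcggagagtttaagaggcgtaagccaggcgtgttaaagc
FBXO5: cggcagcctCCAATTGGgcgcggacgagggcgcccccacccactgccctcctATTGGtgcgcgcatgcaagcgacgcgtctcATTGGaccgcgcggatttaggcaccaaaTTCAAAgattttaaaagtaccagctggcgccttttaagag
UBE2S: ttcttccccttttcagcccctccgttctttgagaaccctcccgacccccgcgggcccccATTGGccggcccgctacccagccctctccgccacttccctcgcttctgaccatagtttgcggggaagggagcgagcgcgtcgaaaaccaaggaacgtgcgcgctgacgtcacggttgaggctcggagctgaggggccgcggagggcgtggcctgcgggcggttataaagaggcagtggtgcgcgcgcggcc
CDC23: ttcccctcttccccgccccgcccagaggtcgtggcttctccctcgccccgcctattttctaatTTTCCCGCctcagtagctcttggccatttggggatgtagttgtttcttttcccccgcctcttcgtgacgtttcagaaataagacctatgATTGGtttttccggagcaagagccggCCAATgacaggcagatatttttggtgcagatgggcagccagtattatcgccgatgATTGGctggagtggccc
CDC16: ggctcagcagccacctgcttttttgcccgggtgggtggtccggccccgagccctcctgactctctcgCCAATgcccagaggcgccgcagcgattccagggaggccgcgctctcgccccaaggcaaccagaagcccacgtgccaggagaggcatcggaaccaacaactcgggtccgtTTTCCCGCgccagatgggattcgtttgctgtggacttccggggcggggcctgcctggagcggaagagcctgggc
CDC20 had 2 CHR words, the nearer at 65 to 60 bases before the start, with CCAAT boxes at 100 to 96 and 55 to 51 bases. FBXO5 had a CHR word at 40 to 35 bases and CCAAT boxes on one or the other strand at 141 to 137, 138 to 134, 98 to 94 and 68 to 64 bases, of which the first 2 overlap. CDC23 had 3 CCAAT boxes and 1 E2F word, UBE2S 1 CCAAT box, and CDC16 1 CCAAT box and 1 E2F word. FZR1 had a CHR word before 1 of its 2 starts, at 226 to 221 bases. CDC27 and ANAPC5 had 1 CCAAT box each and no other match. The outer start of FBXO5 and the promoter of ANAPC1 had none, and UBE2C was not in the table. Over all 35116 promoters of the table, 14.3% held a CHR word, 32.0% a CCAAT box and 2.79% an E2F word. For the G2/M reference genes the shares were 51.4%, 62.9% and 5.71% of 35 promoters. A match describes these letters only, and binding was not measured.

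The batches differed in the level of most members, which is the reason for centring on the batch. In a limma fit over the 39 arrays, 7 of 9 members differed between KD1 and KD2 (adjusted p under 0.05), 3 higher in KD1 and 4 lower, where 22.5% of all 54675 probe sets were higher and 22.0% lower. UBE2S averaged 12.43 ± 0.10 in KD1 arrays and 11.38 ± 0.19 in KD2 arrays (SD, n = 9 and 23), a difference of 1.06 (SE 0.06), and the groups did not overlap. CDC20 averaged 11.35 ± 0.19 in KD1 arrays and 10.45 ± 0.23 in KD2 arrays, a difference of 0.90 (SE 0.09). UBE2C was higher in KD1 by 0.27, and CDC27 (-0.33), FBXO5 (-0.26), CDC16 (-0.24) and CDC23 (-0.23) were lower.

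Between KD3 and KD2, 6 of 9 members differed, 4 higher in KD3 and 2 lower, where 19.8% of all probe sets were higher and 22.0% lower. UBE2S was again higher in KD3, by 0.86 (SE 0.07), and UBE2C was higher by 0.69 (SE 0.11), while CDC20 differed by only -0.10 (95% interval -0.29 to 0.10, adjusted p = 0.461 in limma). CDC16 (0.26) and FZR1 (0.23, below noise) were higher too. ANAPC5 was lower in KD3. It averaged 10.73 ± 0.09 in KD3 arrays and 11.24 ± 0.07 in KD2 arrays (SD, n = 7 and 23), a difference of -0.51 (SE 0.04). This was larger than any difference of its main probe set from a batch median, though not of its probe sets below noise. FBXO5 was lower by 0.36 on the log2 scale. The siRNAs differ between the batches, so batch and siRNA cannot be told apart in these values.

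**Figure D5:**
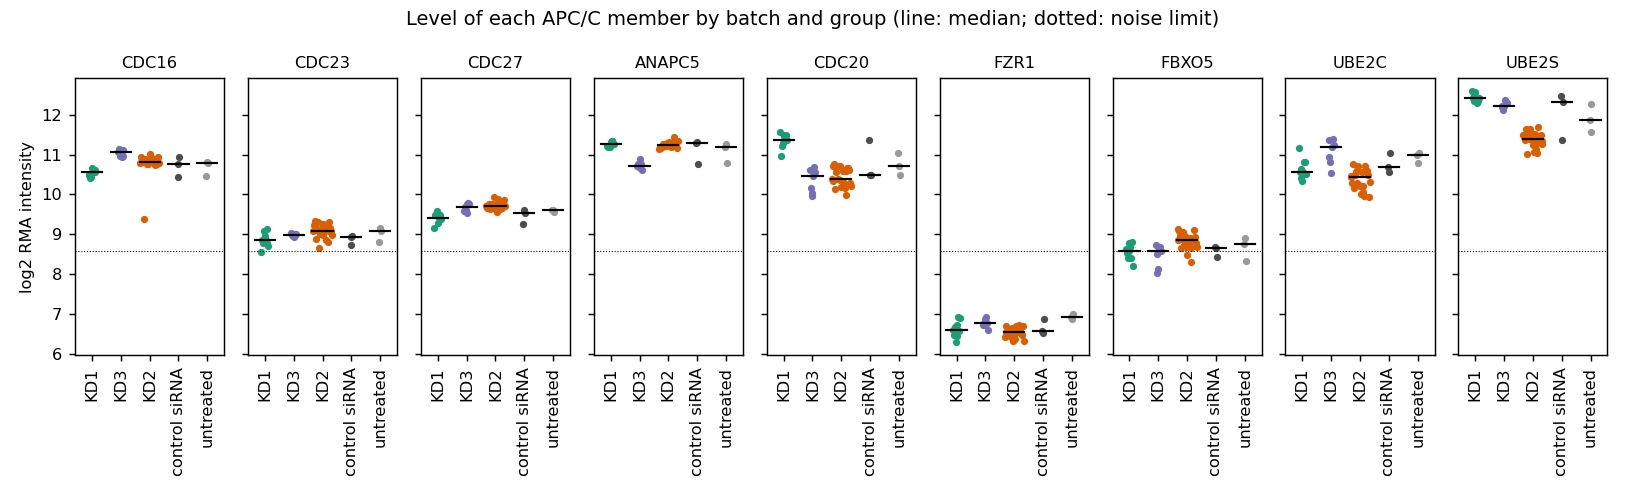
Log2 intensity (vertical axis) of each measured member in the arrays of batches KD1 (n = 9), KD3 (n = 7) and KD2 (n = 23) and in the control siRNA and untreated arrays (n = 3 each); the line is the median and the dotted line the noise limit of 8.59. UBE2S lies higher in KD1 and KD3 than in KD2 without overlap, ANAPC5 lies lower in KD3, and the 3 control siRNA arrays of UBE2S spread over the range of the batches.

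No member was called different after control siRNA, in a test that could have missed differences. In limma, without pairing of the arrays, 0 of 9 members differed between control siRNA and untreated arrays at an adjusted p under 0.05. At an unadjusted p under 0.05 it was again 0 of 9. Of all probe sets 0% were higher and 0% lower at the adjusted threshold. At an unadjusted p under 0.05 it was 97 of 54675, fewer than that threshold alone would give. The arrays of each group spread widely. CDC20 had log2 values of 11.37, 10.48 and 10.49 in the control siRNA arrays, against 11.03, 10.71 and 10.48 in the untreated arrays, so the groups overlapped. UBE2S had 12.47, 11.38 and 12.32 in the control siRNA arrays, against 11.86, 11.58 and 12.27 in the untreated arrays. UBE2C averaged 10.76 ± 0.25 in the control siRNA arrays and 10.95 ± 0.13 in the untreated arrays (SD, n = 3 each) and in limma differed by -0.19 (95% interval -0.57 to 0.20). CDC16 differed by 0.02 (95% interval -0.40 to 0.44). Same-numbered arrays of both groups deviated together (r = 0.580, 0.671 and 0.890, the last the near copies). The unpaired fit counts this shared spread as error, so it can miss differences. With the arrays paired by number (replicate block) 0 of 9 members were called again, and 1 had an unadjusted p under 0.05. The arrays numbered 3, as near copies, could show little difference. Without both of them 0 of 9 members were called. In the unpaired fit of all 3 arrays of each group, the interval of UBE2S ran from -0.61 to 0.91. Nothing says that the 3 arrays of a group came from separate experiments, so the tests measure the spread between these arrays, which may be technical. UBE2S in control siRNA arrays 1, 2 and 3 lay near its medians in KD1, KD2 and KD3 (12.42, 11.38 and 12.21). So did CDC20 (11.36, 10.39 and 10.47) and ANAPC5 (11.26, 11.23 and 10.72). FBXO5 followed its batch medians less closely, with 8.67 in control siRNA array 2 against 8.87 in KD2. UBE2S in untreated array 1 (11.86) lay away from the KD1 median. Whether the spread follows the batches was not tested.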

How the data were processed

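The members and gene lists were chosen with earlier results of these data known. The authors normalised the arrays with RMA (version and build not given in the sources used here) and deposited linear intensities, here taken to log2 without further normalisation. Batches came from the study's table of targets. Of 54675 probe sets 41097 named 1 gene, 1801 several and 11777 none. A probe set was above noise at 1.5 times the median of the BioB 3′ control (intensity 385). Arrays have no read depth, and their number limits the precision. Named genes were the members, the 3 genes above noise of highest rho with each, and the 2 lowest and 2 highest of each list in the CDC16 siRNA array; siRNA arrays were named at a member's lowest or highest value, and others after their values were seen. Group comparisons used limma 3.58.1 (R 4.3.3) over all probe sets with Benjamini-Hochberg adjustment, and all else Python 3.11.15 with numpy 2.4.6 and pandas 2.3.3. Both tests were tried on simulated data. Correlations used 100000 permutations within batches, or across batches where values were not batch-centred. Deviations from the group mean correlated between same-numbered control siRNA and untreated arrays (r = 0.580, 0.671 and 0.890, the last the near copies). The main limma fit did not pair these arrays, and the replicate block alternative did. Alternatives varied the comparison value, probe set, fold, noise filter, centring, arrays, correlation and normalisation.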

Additional observations from a re-analysis of the deposited data

How the results depend on the processing

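Of 56 alternatives over 10 results, 44 left a result in its direction, on its side of the threshold or within 1.5 times its count. CDC16 in its own array lay between -1.44 and -1.33 under all 5 alternatives to its main value. The counts of member values past 0.5 over the 39 arrays, 5 lower and 1 higher with batch medians, depended on the comparison value: 17 were lower and 29 higher against the median of all siRNA arrays, and 39 lower and 13 higher against the control siRNA mean, which keep the batch differences. With the probe set of largest variance 9 were lower and 8 higher, and at 1.5-fold 2 were lower and 0 higher. Against the control siRNA mean 2 members passed 0.5 in the CDC16 siRNA array. Without batch centring 14 pairs of members were correlated, 4 of them among the 6 of the main analysis. Then 3 members were correlated with the G2/M reference (CDC20, UBE2C and UBE2S). With the S phase reference 3 were correlated (CDC20 and FBXO5, and CDC16 with a rho of -0.447). These permutations ran across batches, so the calls may carry batch differences. In KD2 alone the same 6 pairs were called, and with the probe set of largest variance 5 pairs, 4 of them the same: CDC20 with FBXO5 and FBXO5 with UBE2C were lost, and CDC16 with UBE2S was called with a rho of -0.521. Without the MITF, MCM2 and MAP2K1 siRNA arrays, an alternative chosen after seeing the data, the same 6 pairs were called, but UBE2S lost its call with both references. CDC23 lost both with the probe set of largest variance. For control siRNA against untreated, 0 members were called with the replicate block (1 at an unadjusted p under 0.05), and leaving out each array in turn gave 0 to 0. The causes of these changes were not tested, and signal near the noise limit bounds what FBXO5 and FZR1 can show.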

Other observations

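Dixon's test was run on the values of each measured member over the 9 arrays of KD1 and the 7 arrays of KD3, 18 groups in all, and flagged 0 of them. The 23 arrays of KD2, which hold the CDC16 value of -1.44, were not tested. The arrays of a batch carry different siRNAs and are not replicates.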
